A study of Mus musculus with 9 samples.

Results

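The synucleins Sncb and Sncg and 5 further genes linked to inherited Parkinson disease (Uchl1, Pink1, Park7, Lrrk2 and Vps35) were followed in single cells of the developing mouse ventral midbrain. These 7 genes were taken by symbol from the 32661 entries left in the count tables once ERCC spike-ins and mitochondrial genes were set aside. Cells were sorted from VGAT-Cre:Ai14:Pitx3-GFP mice and profiled with SORT-seq, a plate form of CEL-seq2 with 1 cell per well. In these mice tdTomato marks every cell that has expressed VGAT (Slc32a1, the vesicular GABA transporter) at any time up to the sort, and GFP mainly marks midbrain dopamine neurons. Cells with tdTomato filled 4 plates from embryos (VGAT E16.5) and 3 plates from newborns (VGAT P0.5), and cells with both tdTomato and GFP filled 1 plate at each stage (VGAT+Pitx3 E16.5 and VGAT+Pitx3 P0.5). Cells with both signals are rare and are over-represented here by the sort. All groups carried the same alleles and none was treated. Brains came from several litters at each stage and the labels do not say which animals gave which plate. The p-values between sorts and between stages thus measure the spread between plates. Those between classes of cells rest on sums within plates.

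Of 3455 wells, 2034 passed the limits of at least 2000 genes, at most 50000 counts and under 15% mitochondrial counts, 1459 of them on VGAT and 575 on VGAT+Pitx3 plates. Kept cells per plate ranged from 44 (VGAT P0.5 replicate 1) to 304, and total counts from 1435919 to 5408710 per plate. No cell name was shared between plates. The cell names carry a pair of plate labels whose stages differ on 4 plates (VGAT E16.5 replicates 3 and 4, VGAT P0.5 replicates 1 and 3). The first label was used, as it is the one that matches the sample titles. Pitx3 followed the sort given in this label, with at most 0.380 CPM (counts scaled to the plate's total) on the 7 VGAT plates and 147 and 78.0 CPM on the VGAT+Pitx3 plates. No comparable marker checks the stage, so the calls between stages are also given under the second label. The summed level of 8 dopaminergic markers was between 113 and 169 CPM on VGAT plates and 6067 and 4721 CPM on the VGAT+Pitx3 plates, and Slc32a1 was found on all 9 plates (158 to 325 CPM). Gad1 was nearly absent from VGAT+Pitx3 plates (14.5 and 10.3 CPM, against 796 CPM or more on VGAT plates), whereas Gad2 was present at 936 and 1044 CPM. The 5 astrocyte and radial glia markers summed to 367 CPM on VGAT P0.5 replicate 2, to 151 and 144 CPM on the VGAT+Pitx3 plates and to between 3.45 and 11.6 CPM on the other 6 plates.

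Synucleins are small soluble proteins enriched in presynaptic terminals, where they bind vesicle membranes. Uchl1 is an abundant neuronal enzyme that releases ubiquitin from short adducts. Pink1 is a kinase that accumulates on damaged mitochondria and labels them for removal, and Park7 (DJ-1) protects cells against oxidative stress. Lrrk2 is a large kinase that phosphorylates Rab proteins on intracellular membranes, and Vps35 is the core of the retromer, which returns cargo from endosomes to the Golgi and the plasma membrane. Mutations of several of these genes cause familial Parkinson disease, in which dopamine neurons of the substantia nigra are lost.

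Among the 7 genes, Sncb set the sorts and the stages apart. It was lower in VGAT+Pitx3 than in VGAT cells and higher at P0.5 than at E16.5. The other 6 genes passed neither test. Uchl1 was the most abundant member and was higher in VGAT+Pitx3 cells rich in Slc6a3, the dopamine transporter, than in those without it. Each of these differences failed to pass in some of the alternative settings given below. Neither difference of Sncb passed under the second plate label. Levels below are CPM from 3′ transcript tags after TMM normalization (scaling factors that align the plates), not divided by length. A transcript should give 1 tag, but the totals also hold counts in introns, for which this need not be so. Counts of all kept cells were summed per plate, so that fewer cells with a transcript and less RNA per cell cannot be told apart in these sums. Tests are edgeR's quasi-likelihood test with p-values adjusted over all genes tested (Benjamini-Hochberg, threshold 0.05).

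The upstream sequences of the 2 genes that passed a test are shown so that their makeup can be compared. RefSeq start sites (GRCm38.p6) were found for 6 of the 7 genes. The 250 bases before the start of Sncb (ENSMUSG00000034891) lie at chr13:54766596-54766845 on the minus strand, and those of Uchl1 (ENSMUSG00000029223) at chr5:66675871-66676120 on the plus strand. Both are written 5′ to 3′ along the gene, with capitals for matches to 4 motifs that were searched on both strands. The TATA box was searched as TATAAA and the CCAAT box by its own letters. The GC box was searched as GGGCGG, and the E-box was searched as CACGTG.
Sncb: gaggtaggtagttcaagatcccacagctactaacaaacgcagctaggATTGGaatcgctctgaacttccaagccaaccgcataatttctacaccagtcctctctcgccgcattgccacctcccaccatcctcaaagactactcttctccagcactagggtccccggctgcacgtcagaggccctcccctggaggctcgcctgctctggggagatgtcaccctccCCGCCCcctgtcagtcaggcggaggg
Uchl1: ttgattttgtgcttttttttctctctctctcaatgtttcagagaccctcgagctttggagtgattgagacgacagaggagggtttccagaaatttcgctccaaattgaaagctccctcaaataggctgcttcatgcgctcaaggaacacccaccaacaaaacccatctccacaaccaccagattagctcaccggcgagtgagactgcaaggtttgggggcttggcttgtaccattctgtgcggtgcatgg
The Sncb window held 1 CCAAT-box match and 1 GC-box match, which do not overlap, 10 CG pairs and 58.8% G or C. The Uchl1 window held no match, 7 CG pairs and 48.8% G or C. Of 27025 windows of the same length, 34.5% held a CCAAT box, 32.9% a GC box, 13.0% a TATA box and 6.05% an E-box, and the median content of G or C was 52.0%. A match describes the letters only.

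Sncb lies on chromosome 13 (GRCm38, 54758860 to 54766595, minus strand) and overlaps no other annotated gene. On the VGAT E16.5 plates Sncb was at 94.8, 123, 90.3 and 96.1 CPM. On the VGAT P0.5 plates it was at 182, 264 and 225 CPM, and on the VGAT+Pitx3 plates at 55.6 CPM at E16.5 and 147 CPM at P0.5. Every P0.5 plate of VGAT cells was above every E16.5 plate, and within each stage the VGAT+Pitx3 plate was below all VGAT plates. The order of the groups was VGAT P0.5 (223 ± 41.1 CPM, SD, n = 3), VGAT+Pitx3 P0.5 (147 CPM, 1 plate), VGAT E16.5 (101 ± 14.7 CPM, SD, n = 4) and VGAT+Pitx3 E16.5 (55.6 CPM, 1 plate), and each single plate lay outside the range of its neighbours in this order. Between 99.2% and 100% of Sncb counts were spliced, that is, on exons.

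**Figure D1:**
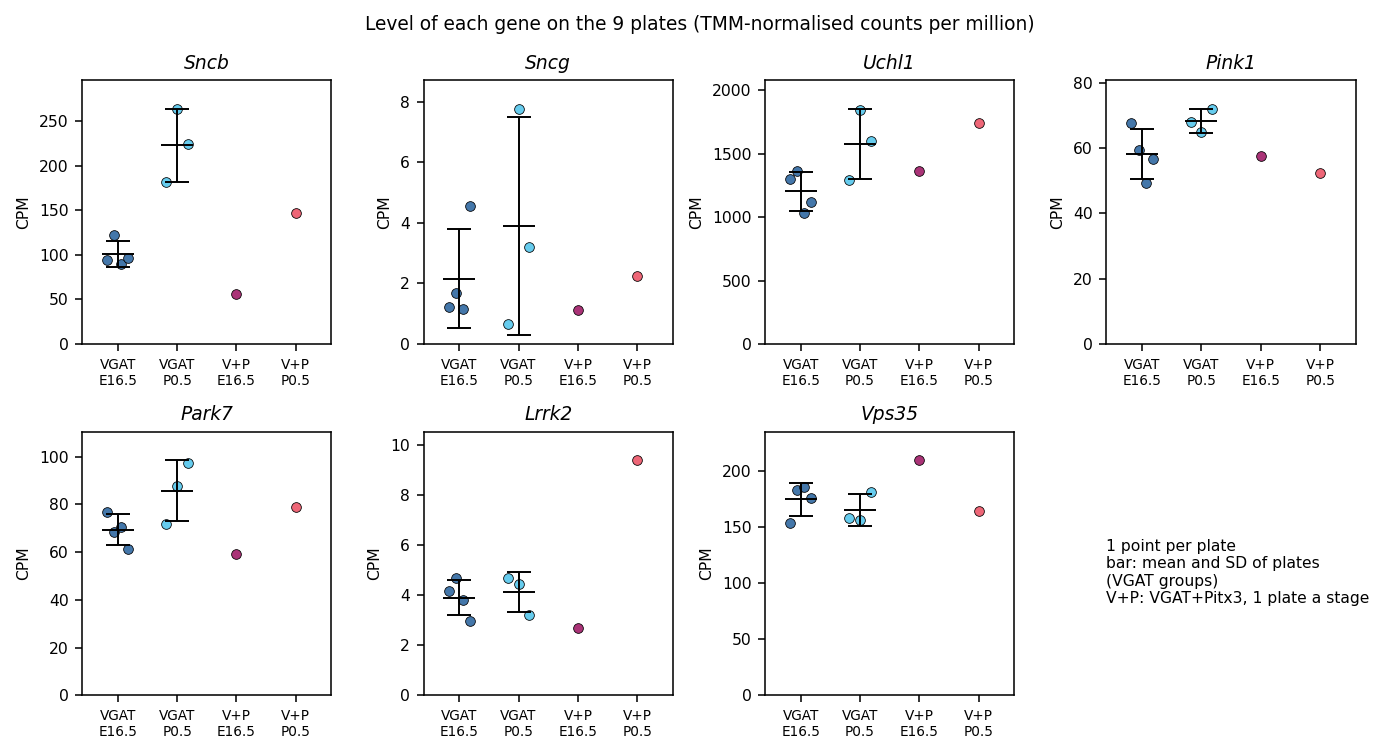
Level in CPM (TMM-normalized counts of kept cells summed per plate) of the 7 genes on the 9 plates, 1 point per plate; bars give mean and SD over plates for the VGAT groups. Sncb at P0.5 (182 to 264 CPM) does not overlap Sncb at E16.5 (90.3 to 123 CPM) in VGAT cells, and each VGAT+Pitx3 plate (V+P) is below the VGAT plates of its stage.

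Between stages, 1 of the 7 genes passed the test on the 7 VGAT plates, where edgeR called 4.58% of 13639 genes. This gene was Sncb, with a log2 fold change from E16.5 to P0.5 of 1.16 (standard error 0.15, 95% interval 0.84 to 1.48, edgeR adjusted p = 0.00640), a 2.23-fold rise. The call held with each plate left out in turn (log2 fold change 1.02 to 1.27, edgeR adjusted p = 0.00246 to 0.0309). Without VGAT P0.5 replicate 2, the plate with the high astrocyte and radial glia markers, the log2 fold change was 1.02 (edgeR adjusted p = 0.0135). Under the second plate label, an alternative added after the data were seen, it was -0.075 (edgeR adjusted p = 0.988) and edgeR called 1 gene in all in place of 624. In the 151 cells with at least 85% spliced counts it was 1.08 and did not pass (edgeR adjusted p = 0.214).

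Between sorts, with stage as a covariate, 1 of the 7 genes passed over the 9 plates, where edgeR called 8.93% of 14624 genes. This was again Sncb, with a log2 fold change of VGAT+Pitx3 over VGAT of -0.73 (standard error 0.17, 95% interval -1.09 to -0.38, edgeR adjusted p = 0.0100), a level of 0.601 times that in VGAT cells. Without the VGAT+Pitx3 E16.5 plate the value was -0.62 and did not pass (edgeR adjusted p = 0.219). It did not pass under the second plate label either (-0.67, edgeR adjusted p = 0.615), nor in cells with at least 85% spliced counts (-1.11, edgeR adjusted p = 0.0874). Besides the dopaminergic and glial lists, the pair of glutamatergic markers summed to 107 and 206 CPM on the VGAT+Pitx3 plates and to 17.8 CPM or less on VGAT plates. This came from Slc17a6 (106 and 206 CPM), as Slc17a7 was at 2.78 CPM or less on all 9 plates. The 5 GABAergic markers summed to 1178 and 1340 CPM against 2183 to 2729 CPM: Gad1, Gata2 and Gata3 were lower on the VGAT+Pitx3 plates, Gad2 was higher (936 and 1044 CPM against 493 to 650 CPM) and Slc32a1 was within the range of the VGAT plates. The part of these cells in the Sncb difference was not tested.

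**Figure D2:**
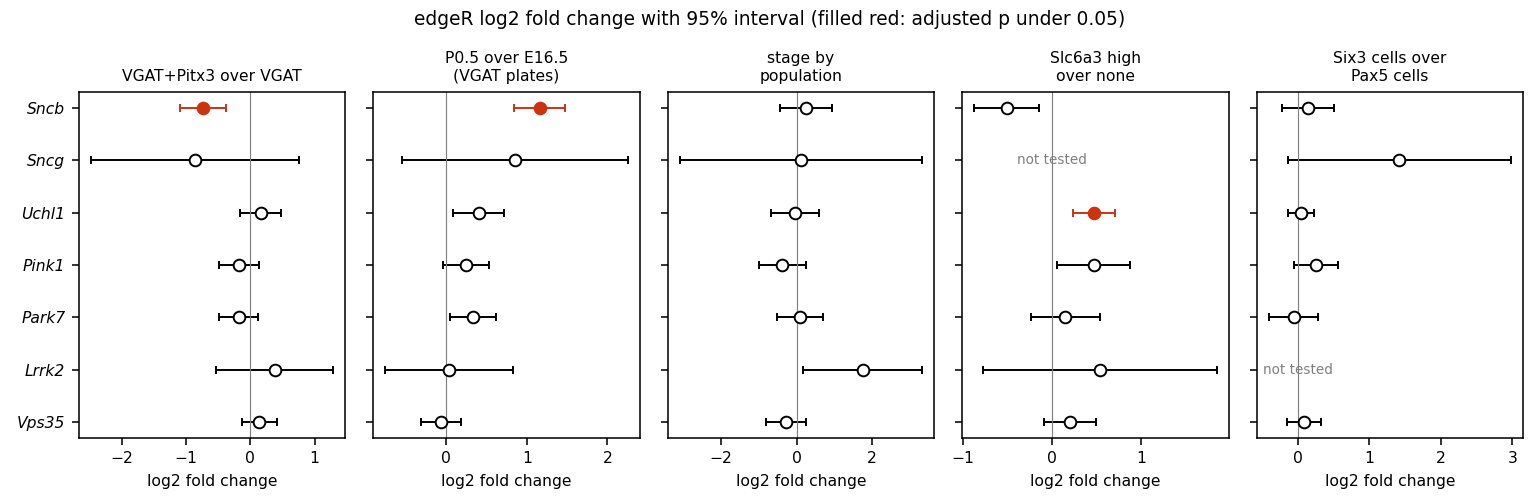
Log2 fold change from edgeR (points) with 95% interval (bars) of each gene in the 5 comparisons; filled red points had an adjusted p under 0.05. Sncb passes between sorts (-0.73) and between stages (1.16), and Uchl1 between Slc6a3 classes (0.47).

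The share of cells with a Sncb count was also described. At a fixed depth a lower level alone gives fewer cells with a count, so this share is not a result separate from the level. With each cell thinned at random to 4000 counts, which left out 78 shallower cells, 31.1%, 31.1%, 21.8% and 25.6% of cells on the VGAT E16.5 plates had at least 1 Sncb count. On the VGAT P0.5 plates the share was 60.5%, 53.1% and 51.5%. On the VGAT+Pitx3 plates it was 16.4% at E16.5 (49 of 299 cells, 95% exact interval 12.4 to 21.1%) and 37.3% at P0.5 (93 of 249 cells, 31.3 to 43.7%), where the intervals cover counting error only. The 4 groups stood in the same order as for the levels, although the plates within each VGAT group did not, and no test was run on the shares. With thinning to 8000 counts the group means kept this order. The VGAT+Pitx3 P0.5 plate (68.9%) was then above VGAT P0.5 replicate 3 (67.1%). Without thinning, the mean share was 63.3% in VGAT E16.5 and 83.5% in VGAT P0.5, and the share was 40.8% in VGAT+Pitx3 E16.5 and 54.6% in VGAT+Pitx3 P0.5, which then stood below VGAT E16.5. Sncb counts were spread over many cells: the 5 cells with the most counts held 11.6 to 30.7% of them, with the highest share on the plate of 44 cells.

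**Figure D3:**
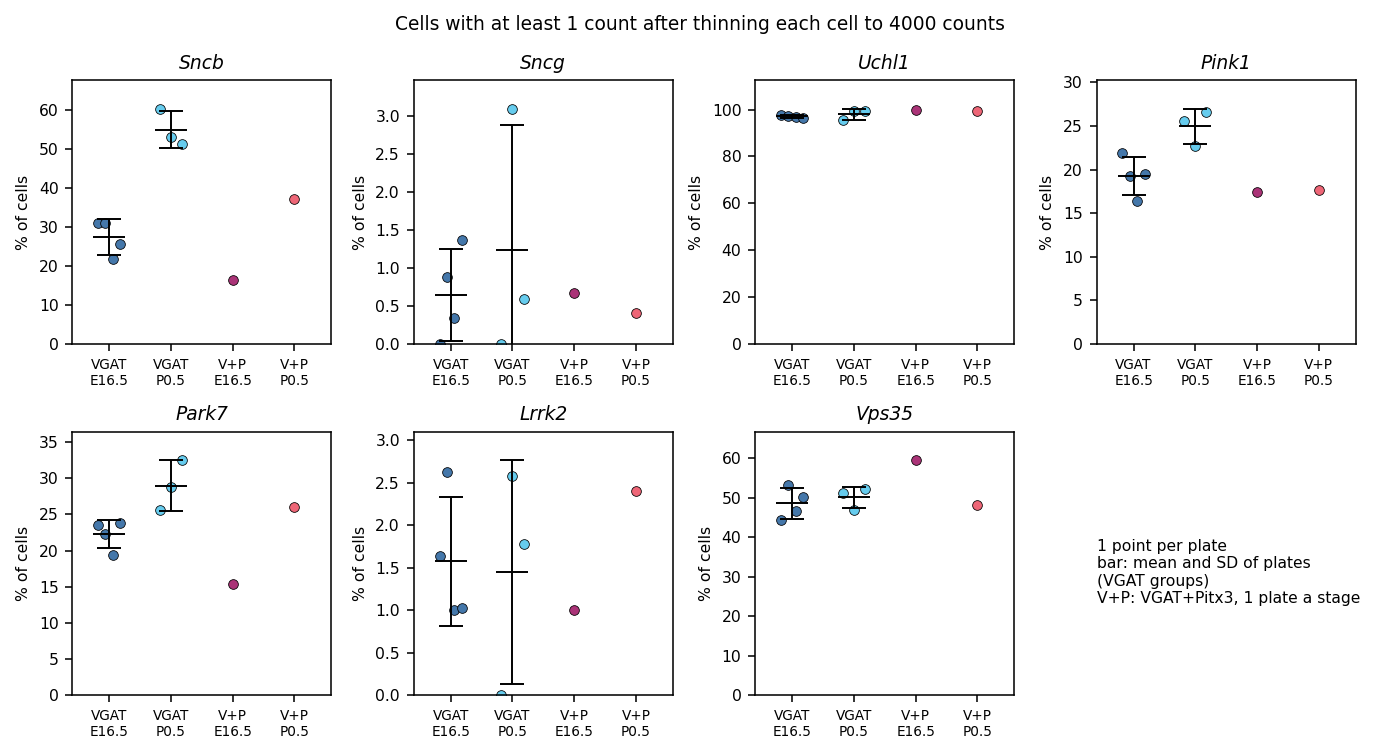
Percent of cells with at least 1 count of each gene after thinning every cell to 4000 counts, 1 point per plate, with mean and SD over plates for the VGAT groups. Sncb is found in 21.8 to 31.1% of VGAT cells at E16.5 and 51.5 to 60.5% at P0.5, while Uchl1 is found in 95.3% or more of cells on every plate.

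Sncg (ENSMUSG00000023064; chromosome 14, 34370274 to 34374789, minus strand), the other synuclein measured, was close to the limit of detection. It had between 1 and 23 counts per plate, or 1.23, 1.68, 1.14 and 4.57 CPM in VGAT E16.5, 0.673, 7.78 and 3.21 CPM in VGAT P0.5, and 1.13 and 2.24 CPM on the VGAT+Pitx3 plates. A gene at 3 counts would have 0.561 to 2.02 CPM on these plates, and VGAT P0.5 replicate 1, with 1 count, was under its limit. The VGAT stages overlapped, the VGAT+Pitx3 E16.5 plate was just under the lowest VGAT E16.5 plate, and the VGAT+Pitx3 P0.5 plate was within the range of VGAT P0.5. A single cell held 13 of the 23 counts on VGAT E16.5 replicate 4, so that the highest value at E16.5 came largely from 1 cell. Neither the stage difference (log2 0.85, 95% interval -0.55 to 2.25) nor the difference between sorts (-0.86, -2.48 to 0.76) passed (edgeR adjusted p = 0.453 and 0.658), and the interval between stages takes in the value of Sncb.

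Uchl1 (chromosome 5, 66676091 to 66687234, plus strand) was the member with the highest level. It had 1304, 1362, 1031 and 1123 CPM in VGAT E16.5, 1295, 1848 and 1598 CPM in VGAT P0.5, and 1366 and 1746 CPM on the VGAT+Pitx3 plates at E16.5 and P0.5. The stages overlapped in VGAT cells, since VGAT P0.5 replicate 1 lay among the E16.5 plates, and both VGAT+Pitx3 plates were within the span of the VGAT plates. The log2 fold change was 0.40 between stages (95% interval 0.088 to 0.72, edgeR adjusted p = 0.119) and 0.16 between sorts (-0.16 to 0.48, edgeR adjusted p = 0.679), and neither passed. The antisense gene Uchl1os (chromosome 5, 66626495 to 66676498, minus strand) overlaps the start of Uchl1 and covers the whole upstream window printed above. It had between 1.90 and 10.8 CPM. Whether reads were counted by strand is not stated, so counts of this pair could be mixed.

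Neither Pink1 (49.2 to 72.1 CPM over the 9 plates) nor Park7 (59.0 to 97.5 CPM) passed either test. Pink1 (ENSMUSG00000028756; chromosome 4, 138313409 to 138326307, minus strand), within which the microRNA genes Mir7019 and Gm27646 lie on the same strand, was at 67.7, 59.3, 49.2 and 56.8 CPM in VGAT E16.5. It was at 67.9, 65.0 and 72.1 CPM in VGAT P0.5, and at 57.7 and 52.5 CPM on the VGAT+Pitx3 plates. The E16.5 and P0.5 plates overlapped. Park7 (ENSMUSG00000028964; chromosome 4, 150897133 to 150914437, minus strand) was at 76.9, 68.6, 70.7 and 61.2 CPM in VGAT E16.5 and at 72.0, 87.8 and 97.5 CPM in VGAT P0.5. On the VGAT+Pitx3 plates it was at 59.0 CPM at E16.5 and 78.9 CPM at P0.5. Stages overlapped here too, through VGAT P0.5 replicate 1 and VGAT E16.5 replicate 1. Between stages the log2 fold changes were 0.25 for Pink1 (95% interval -0.036 to 0.53, edgeR adjusted p = 0.269) and 0.33 for Park7 (0.048 to 0.62, edgeR adjusted p = 0.146). Between sorts they were -0.17 (-0.49 to 0.14, edgeR adjusted p = 0.641) and -0.19 (-0.48 to 0.11, edgeR adjusted p = 0.579). In thinned cells of VGAT E16.5, VGAT P0.5, VGAT+Pitx3 E16.5 and VGAT+Pitx3 P0.5, Pink1 was found in 19.3%, 25.0%, 17.4% and 17.7% of cells and Park7 in 22.3%, 29.0%, 15.4% and 26.1%.

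Lrrk2 (ENSMUSG00000036273; chromosome 15, 91673175 to 91816120, plus strand) was, with Sncg, a rare transcript, with 7 to 25 counts per plate. It was at 4.19, 4.68, 3.80 and 2.98 CPM in VGAT E16.5 and 4.71, 4.44 and 3.21 CPM in VGAT P0.5. The VGAT+Pitx3 plates were its lowest and its highest, with 2.71 CPM at E16.5 (12 counts) and 9.42 CPM at P0.5 (21 counts, of which 5 cells held 57.1%). Lrrk2 stood apart from the other members in its splicing: 57.1% of its counts were spliced on the VGAT+Pitx3 P0.5 plate and 20 to 37.5% on the other 8 plates, against 89.3% or more for every other member on every plate. On those 8 plates most Lrrk2 counts thus lay in introns. Neither the stage difference (log2 0.036, edgeR adjusted p = 0.998) nor the difference between sorts (0.38, 95% interval -0.53 to 1.29, edgeR adjusted p = 0.752) passed.

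Vps35 (ENSMUSG00000031696; chromosome 8, 85260392 to 85299802, minus strand) was at 154, 184, 187 and 176 CPM in VGAT E16.5, 158, 157 and 182 CPM in VGAT P0.5, and 210.3 and 165 CPM on the VGAT+Pitx3 plates. The VGAT+Pitx3 E16.5 plate was above all others and the VGAT+Pitx3 P0.5 plate was among the VGAT plates. The log2 fold change was -0.066 between stages (95% interval -0.32 to 0.18, edgeR adjusted p = 0.771) and 0.14 between sorts (-0.13 to 0.41, edgeR adjusted p = 0.668). These intervals leave out a change as large as that of Sncb between stages. Orc6 overlaps the start of Vps35 on the opposite strand and was at 20.2 to 33.3 CPM.

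Whether the stage difference of a member differed between the sorts was asked with an interaction term over the 9 plates, in which the single VGAT+Pitx3 plate of each stage is assumed to vary like the VGAT plates. edgeR called 0.0% of 15724 genes (997 had an unadjusted p under 0.05), DESeq2 called 4, and edgeR without the filter on low counts called 66. None of the 7 members was among those calls with either tool. For Sncb, which was higher at P0.5 in both sorts, the difference of the stage effects was 0.25 (95% interval -0.45 to 0.94, edgeR adjusted p = 0.899), and under the second plate label it was 1.47 (edgeR adjusted p = 0.994). For Lrrk2 it was 1.75 (standard error 0.73, unadjusted p = 0.0321, edgeR adjusted p = 0.772), the lowest unadjusted p of the 7, and rested on the 12 and 21 counts of the VGAT+Pitx3 plates.

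Within the VGAT+Pitx3 plates, cells were split by Slc6a3, a defining gene of mature dopamine neurons. Of cells thinned to 4000 counts, 155 at E16.5 and 134 at P0.5 had no Slc6a3 count, 53 and 44 had 1 or 2, and 91 and 71 had 3 or more. Uchl1 stood at 1159, 1373 and 1540.2 CPM in these classes at E16.5 and at 1428, 1769.9 and 2106 CPM at P0.5. On both plates Uchl1 was thus lowest in cells without Slc6a3 and highest in cells with 3 or more counts. Sncb ran the other way, with 64.2, 45.8 and 44.2 CPM at E16.5 and 160.5, 147 and 118 CPM at P0.5. The share of thinned cells with Sncb did not follow this order, with 16.1%, 18.9% and 15.4% at E16.5 and 39.6%, 40.9% and 31.0% at P0.5.

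Of 6 members that passed the filter on low counts (Sncg did not), 1 was called between cells with 3 or more Slc6a3 counts and cells with none, where edgeR called 12.9% of 11052 genes. Uchl1 had a log2 fold change of 0.47 (standard error 0.12, 95% interval 0.23 to 0.71, edgeR adjusted p = 0.00141), a 1.39-fold higher level, with 0.41 on the E16.5 plate and 0.56 on the P0.5 plate. This fit rests on 4 sums with 1 residual degree of freedom, its spread is shared fully across genes, and the call was lost with DESeq2 (0.49, adjusted p = 0.272), with the VGAT plates added to estimate the spread (0.48, edgeR adjusted p = 0.173) and without the plate as a block (0.48, edgeR adjusted p = 0.454). Sncb had a log2 fold change of -0.50 (95% interval -0.87 to -0.14, edgeR adjusted p = 0.0530) and passed only with spliced counts (-0.55, edgeR adjusted p = 0.0281). Cells with 3 or more Slc6a3 counts were deeper than cells without (medians of 18109 and 14033 counts at E16.5, 9162 and 8001 at P0.5), whose part in these values was not tested.

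The other members moved less evenly between the Slc6a3 classes. Pink1 was at 55.8 and 65.3 CPM in cells without and with 3 or more Slc6a3 counts at E16.5, and at 41.2 and 77.2 CPM at P0.5. It was found in 17.4% and 18.7% of these thinned cells at E16.5 and in 14.2% and 32.4% at P0.5. Its lowest level on both plates was in the cells with 1 or 2 counts (39.2 and 30.4 CPM). The log2 fold change was 0.47 (95% interval 0.058 to 0.88, edgeR adjusted p = 0.140). Vps35 had 0.20 (-0.092 to 0.50, edgeR adjusted p = 0.487), Park7 0.15 (-0.24 to 0.54, edgeR adjusted p = 0.760) and Lrrk2 0.54 (-0.77 to 1.85, edgeR adjusted p = 0.744).

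**Figure D4:**
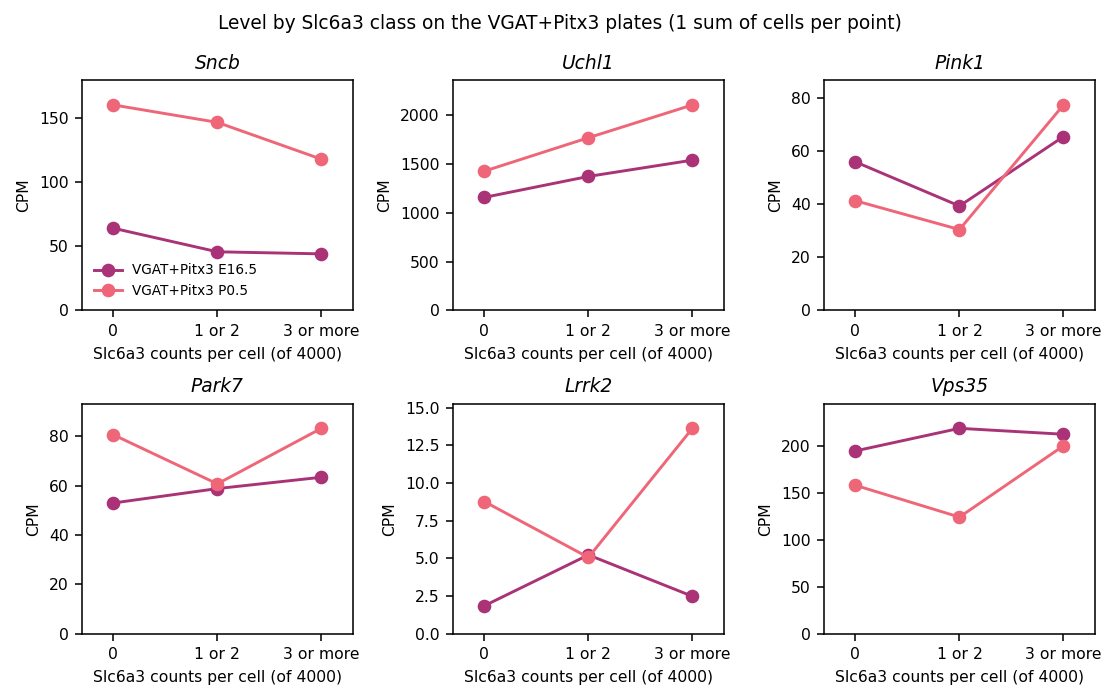
Level in CPM of 6 of the genes in VGAT+Pitx3 cells with 0, 1 or 2, and 3 or more Slc6a3 counts (of 4000 counts per cell), 1 sum of cells per point and 1 line per plate; the points have no replicate error. Uchl1 is higher and Sncb lower in cells with 3 or more Slc6a3 counts than in cells with 0 on both plates.

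Among VGAT cells, those with Six3 and no Pax5 count and those with Pax5 and no Six3 count, which mark different GABA neurons of the substantia nigra pars reticulata, were compared in pairs within the 7 plates. A plate gave 19 to 131 cells of the Six3 class and 5 to 69 of the Pax5 class. Of 6 members tested (Lrrk2 did not pass the filter), none was called, where edgeR called 2.83% of 11773 genes, and none was called by DESeq2 or had an unadjusted p under 0.05. Sncb averaged 169 ± 83.3 CPM in the Six3 class and 158 ± 123 CPM in the Pax5 class (SD, n = 7). The 5 Pax5 cells of VGAT E16.5 replicate 1 held no Sncb count. Sncb was higher in the Six3 class on 4 of 7 plates, and its log2 fold change was 0.15 (95% interval -0.21 to 0.51, edgeR adjusted p = 0.864). Uchl1 was at 1442 ± 308 and 1380.5 ± 246 CPM (SD, n = 7), with 0.051 (-0.13 to 0.23, edgeR adjusted p = 0.924). Sncg had the largest fold change, 1.42 (-0.14 to 2.98, edgeR adjusted p = 0.529), at 5.17 ± 5.34 and 3.59 ± 5.80 CPM (SD, n = 7). Pink1 had 0.26 (-0.045 to 0.56, edgeR adjusted p = 0.582), with the Six3 class above the Pax5 class on 5 of 7 plates.

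Partners of the members were followed through 7 lists with 100 genes in all: the retromer and WASH complexes, mitochondrial quality control, LC3 and GABARAP autophagy, Lrrk2-linked Rab proteins, ubiquitin recycling, other Parkinson-linked genes, and presynaptic vesicle proteins. Of 97 tested between sorts, 3 were higher and 4 lower in VGAT+Pitx3 cells, against 8.93% of all genes called. Of the 14 other Parkinson-linked genes tested, 2 were higher, Gch1 and Dnajc6, and 1 was lower, Vps13c. Gch1, which makes the cofactor that tyrosine hydroxylase needs, was at 68.5 ± 5.50 CPM on the VGAT+Pitx3 plates (SD, n = 2), against 3.35 ± 1.10 CPM for VGAT (SD, n = 7; log2 fold change 4.45, edgeR adjusted p = 1.52e-09). Dnajc6, the neuronal auxilin that uncoats clathrin vesicles, was at 430.4 ± 21.7 CPM (SD, n = 2) and 227 ± 23.4 CPM (SD, n = 7; log2 fold change 0.91, edgeR adjusted p = 6.23e-05). Both kept the call in all 19 alternatives tried for them.

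Among the 15 presynaptic vesicle genes, the list nearest to the synucleins, Syt4 was higher (log2 fold change 0.65, edgeR adjusted p = 0.0239) and Syn2 lower (-1.03, edgeR adjusted p = 0.000654) in VGAT+Pitx3 cells. The median of this list was -0.11, against 0.00 over all genes. Chchd10 (mitochondrial quality control) was lower, with -1.44 (edgeR adjusted p = 0.000731), as were Rab3b (-0.62, edgeR adjusted p = 0.0110) and Vps13c (-0.64, edgeR adjusted p = 0.0157). Without the VGAT+Pitx3 E16.5 plate the calls of Chchd10 (-1.14, edgeR adjusted p = 0.0584), Syn2 (-0.72, 0.0601) and Vps13c (-0.41, 0.426) were lost. Without the VGAT+Pitx3 P0.5 plate those of Rab3b (-0.46, edgeR adjusted p = 0.234) and Syt4 (0.29, 0.598) were lost. Under the second plate label Rab3b (edgeR adjusted p = 0.0552), Vps13c (0.0877) and Syt4 (0.170) did not pass, and in cells with at least 85% spliced counts neither did Rab3b (0.835) and Syt4 (0.934). No gene of the retromer and WASH list, which holds the partners of Vps35, was called in any of the 5 comparisons (14 tested in each).

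Between stages, 6 of 97 partner genes were higher and 2 lower at P0.5, against 4.58% of all genes. Synaptic vesicle membrane protein Syp was at 469 ± 82.9 CPM at P0.5 (SD, n = 3) and 237 ± 58.7 CPM at E16.5 (SD, n = 4; log2 fold change 0.98, edgeR adjusted p = 0.0139), and its plates did not overlap. Chchd10, Bnip3, Map1lc3a and Hspa8 were also higher (log2 fold changes 0.77, 0.58, 0.68 and 0.74), and Rab3c and Syt4 lower (-0.60 and -0.55), with edgeR adjusted p between 0.0233 and 0.0464. Hspa8 has near-identical copies in the genome, so its counts are uncertain. The calls of these 7 genes were all lost without VGAT E16.5 replicate 3 (edgeR adjusted p = 0.0534 to 0.137) and also without VGAT P0.5 replicate 2 (0.0505 to 0.157). Leaving out replicate 1 or 4 of VGAT E16.5 or replicate 3 of VGAT P0.5 lost 6 of the calls each, leaving out VGAT P0.5 replicate 1 lost 3, and all 7 held without VGAT E16.5 replicate 2. None of the 7 passed under the second plate label (edgeR adjusted p = 0.816 to 0.996), where Chchd10 was at 0.25, nor in cells with at least 85% spliced counts (0.103 to 0.661). Map1lc3a lost its call with spliced counts, with at least 3000 genes per cell, without cells over 2 times the plate median and in VGAT cells without Slc6a3 or Pitx3 (edgeR adjusted p = 0.0518 to 0.0562), Syt4 with the second and the third of these (0.0632 and 0.0580), and Chchd10 with spliced counts (0.0504). The median of the presynaptic list was 0.27 and that of all genes 0.02.

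Between Slc6a3 classes, 6 of 95 partner genes were higher and 3 lower in cells with 3 or more counts, against 12.9% of all genes. In the presynaptic list, Cplx2 and Syt1, which time vesicle fusion, were higher (log2 fold changes 2.32 and 1.11, edgeR adjusted p = 1.50e-32 and 1.08e-16) and Syn2 was lower (-1.97, edgeR adjusted p = 2.40e-22). Gch1 was higher (2.14, edgeR adjusted p = 4.68e-23) and Rab3c lower (-0.95, edgeR adjusted p = 9.21e-11). The spread of this fit is shared fully across genes, so such small p-values do not measure a spread between plates. Unlike the call of Uchl1, these 5 held with DESeq2, with the VGAT plates added (edgeR adjusted p = 3.25e-05 to 0.00711) and without the plate block. In cells with at least 85% spliced counts, none of the 4 of them that could be tested passed (edgeR adjusted p = 0.0515 to 0.168). Rab3d (2.22), Cplx1 (0.68), Usp14 (0.43) and Nbr1 (-0.50) also passed, but not with DESeq2. Between Six3 and Pax5 cells, 2 of 96 partner genes were called, Rab8b (0.88, edgeR adjusted p = 0.0219) and Cplx2 (0.64, edgeR adjusted p = 0.00756), both higher in Six3 cells. Without VGAT E16.5 replicate 4 neither passed (0.68 and 0.62, edgeR adjusted p = 0.297 and 0.0573), and Rab8b did not pass without VGAT E16.5 replicate 2 (0.89, edgeR adjusted p = 0.0901) or replicate 3 (0.97, edgeR adjusted p = 0.0735) either. Rab8b also did not pass with DESeq2 (adjusted p = 0.181) or with spliced counts (edgeR adjusted p = 0.119), Cplx2 did not pass in cells with at least 85% spliced counts (edgeR adjusted p = 0.962), and neither passed without the plate block (edgeR adjusted p = 0.0801 and 0.151).

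Finally, the genes whose level ran most like that of each member over the 9 plates were listed among 8184 genes with a mean of at least 20 CPM. The plates share stage, sort and depth, so these correlations of log2 CPM (Pearson's r, n = 9 plates) are a description. Sncb ran closest to Baiap3 (r = 0.986), Rasgrf1 (0.983) and Tceal6 (0.968), and Uchl1 to Prr3 (0.987), Nptxr (0.976) and Camk2n2 (0.974). Pink1 ran closest to Cyhr1 (0.934), Park7 to Dctpp1 (0.944), Vps35 to Ndufaf7 (0.957), Lrrk2 to Adcy3 (0.912) and Sncg to Rab12 (0.962), itself one of the Lrrk2-linked Rab proteins. The values of Sncg and Lrrk2 rest on few counts. Among the members, Sncb and Park7 ran most alike (r = 0.828) and Sncb and Vps35 most apart (r = -0.60).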

How the data were processed

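Cells were profiled by SORT-seq on 9 plates. The authors demultiplexed and trimmed the reads, aligned them with STAR (mm10; GRCm38 per the methods) and counted molecular barcodes per gene and well over exons and introns (total) and over exons (spliced). The deposited values are expected counts, corrected for molecules that share a barcode and not scaled; 51.7% of non-zero values were not whole, and they were rounded after summing per plate. The members, the partner lists and the comparisons were chosen with earlier results of these data known.

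Wells were filtered as given in the report (2034 of 3455 kept). The per-plate sums went into edgeR 4.0.16 under R 4.3.3, with its quasi-likelihood test (TMM, filterByExpr, glmQLFit, glmQLFTest, Benjamini-Hochberg). The models were stage and population (9 plates), stage (7 VGAT plates), their interaction (9 plates), Slc6a3 class (2 VGAT+Pitx3 plates) and Six3 against Pax5 cells (7 VGAT plates), the last pair with the plate as a block and without the class genes. Slc6a3 classes were set after thinning to 4000 counts. Standard errors were taken from the fold change and its F value. edgeR also holds p at or above that of a Poisson test, which applied to Lrrk2 between stages and to Vps35 between Six3 and Pax5 cells, where the interval is narrower than p implies. The code was tested on simulated data.

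At the plates' depth of 1435919 to 5408710 counts, 3 counts equal 0.561 to 2.02 CPM. Intervals of shares are exact Clopper-Pearson intervals at 95%. All 7 members are named, and of each list at most 3 genes per direction and comparison, those with the largest fold change past the threshold, apart from 1 gene that is not reported here, and for each member up to 3 genes of highest correlation. The alternatives were DESeq2 1.42.0, spliced counts, RLE factors, tests without a filter on low counts, at least 3000 genes, at least 85% spliced counts, no cells over 2 times the plate median, VGAT cells without Slc6a3 or Pitx3, other class limits and thinning depths, a block for the replicate number, and leaving out 1 plate at a time. Stage from the second plate label was added after the data were seen. Cluster assignments, unspliced counts and imaging are not used here. Tables and figures were made in Python 3.11.15 with pandas 2.3.3, scipy 1.17.1, matplotlib 3.10.9 and numpy 2.4.6.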

Additional observations from a re-analysis of the deposited data

Results flagged for a closer look

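Of 14 sets of 4 values looked at (level and share of cells of the 7 genes in VGAT E16.5), 1 had a plate far from the others: Sncg at 4.57 CPM on VGAT E16.5 replicate 4, whose gap to the next plate was 0.842 of the range of the group (limit 0.83). Chance marks about 1 in 20 such sets. One cell held 13 of the 23 Sncg counts of this plate.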

How the results depend on the processing

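The number of members called (1 between sorts, 1 between stages, 0 for the interaction, 1 between Slc6a3 classes, 0 between Six3 and Pax5 cells) kept its value in 68 of 79 alternatives. It was 0 in cells with at least 85% spliced counts between sorts, stages and Slc6a3 classes (151 cells, with 4, 4 and 2 members tested), and 0 under the second plate label between sorts and stages. Between sorts it was also 0 with the replicate block and without the VGAT+Pitx3 E16.5 plate. Between Slc6a3 classes it was 0 with DESeq2, without the plate block and with VGAT plates added, and 2 with spliced counts. The cause was not tested. With each plate left out it was between 0 and 1 between sorts, and 1 in all 7 between stages.

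With the replicate number as a block, Sncb had a log2 fold change of -0.56 between sorts (edgeR adjusted p = 0.0985) and 1.11 between stages (0.00618). Same-numbered plates share only a number (correlations of their deviations 0.033, 0.025 and 0.032), and the replicate block moved the genes called from 1306 to 914 between sorts and from 624 to 226 between stages. It turned the sign of Sncg between sorts (0.37) and in the interaction (-0.42) and of Lrrk2 between stages (-0.075), and it ended the calls of Rab3b and Vps13c between sorts (edgeR adjusted p = 0.0706 and 0.101) and of 5 of the 7 named partner genes between stages.

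Other sign changes were of differences that passed no test, apart from those under the second label. Between stages the second label gave Sncb -0.075, Uchl1 -0.059, Pink1 -0.24, Park7 -0.12, Lrrk2 -0.20, Vps35 0.031, Bnip3 -0.16, Map1lc3a -0.050, Rab3c 0.38, Syp -0.14, Hspa8 -0.032 and Syt4 0.24; in the interaction, Sncg -0.23, Uchl1 0.41 and Pink1 0.092. Lrrk2 between stages was -0.040 without the filter. In the interaction, spliced counts gave Uchl1 0.068, VGAT cells without Slc6a3 or Pitx3 gave Sncg -0.0047, and cells with 85% spliced counts gave Uchl1 0.00018, Park7 -0.19 and Vps35 0.84; in those cells Six3 against Pax5 gave Sncb -0.11 and Vps35 -0.020. With 1 plate left out, values ran between sorts from -0.53 to 1.22 for Lrrk2 and -0.024 to 0.26 for Vps35, between stages from -0.079 to 0.23 for Lrrk2, in the interaction from -0.54 to 0.89 for Sncg, -0.16 to 0.081 for Uchl1 and -0.0092 to 0.20 for Park7, and between Six3 and Pax5 cells from -0.16 to 0.077 for Park7.

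The number of all genes called depended on single plates. Between stages (624) there were 260, 92 and 130 when VGAT E16.5 replicate 1, 3 or 4 was left out and 163 and 76 when VGAT P0.5 replicate 2 or 3 was, between sorts (1306) 625 and 866 without the E16.5 or the P0.5 plate of VGAT+Pitx3, and between Six3 and Pax5 cells (333) 166 and 207 without VGAT E16.5 replicate 3 or 4. It also depended on DESeq2 between stages (956) and Slc6a3 classes (397 in place of 1427). Without the filter it was 1592 between stages and 538 between Six3 and Pax5 cells. With 85% spliced cells it was 198, 0, 23 and 29 between sorts, stages, Slc6a3 classes, and Six3 and Pax5 cells. Without the plate block it was 417 between Slc6a3 classes and 149 between Six3 and Pax5 cells, and 731 between Slc6a3 classes with VGAT plates added. The interaction cannot be fitted without either VGAT+Pitx3 plate. Of 84 shares of cells at other depths, 66 moved beyond the spread. Limits of depth hold for Sncg and Lrrk2, which had at most 25 counts per plate.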
